A study of Mus musculus with 12 samples.

Results

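The response of chromatin to dexamethasone (Dex) was examined in T cells whose glucocorticoid receptor gene was conditionally deleted (cKO). The comparison set the 3 Dex-treated cKO libraries against the 3 control cKO libraries, which are 6 of the 12 libraries of the series, and used every peak of the joint count table. Of 222105 peaks, 202587 passed a filter on low counts and were tested. The cells were naive CD4+ T cells of C57/B6 mice, taken from spleen and dLN as the labels put it. In culture they were driven to the homeostatic Th17 state, a helper T cell state that produces IL-17, and were then kept with or without Dex for 2 days. Accessibility was measured by ATAC-seq, in which a transposase cuts open DNA and the fragments are counted by position, on 6000 sorted cells per library with 16 cycles of amplification. The matching wild-type (WT) libraries, 3 control and 3 Dex from C57/B6 mice, served as the reference for the response with the receptor. The sources used here do not give the promoter that drives the recombinase, the deleted part of the gene, the Dex dose or the age of the mice. The labels do not tie the replicates to separate mice or cultures, and the p-values therefore reflect only the spread between these libraries, which may be technical.

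Dex is a synthetic agonist of the glucocorticoid receptor, a nuclear receptor encoded by Nr3c1. Bound receptor enters the nucleus and binds DNA, often at distal elements, where chromatin can become more accessible, and it also restrains AP-1 and NF-kB. In T cells its known targets include Tsc22d3 (GILZ), Fkbp5, Per1, Klf9, Zbtb16, Il7r and Cxcr4. The comparison in cKO cells asks what differs with Dex in cells labelled as lacking the receptor.

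Total counts were between 14796049 and 19133536 in the cKO control libraries and between 17828441 and 25081591 in the cKO Dex libraries. The ranges overlapped, with an exact two-sided permutation p of 0.2, where 3 against 3 libraries cannot go below 0.1. The strongest 10% of tested peaks held 57.9%, 60.3% and 58.5% of counts in the control libraries and 61.0%, 61.6% and 58.1% in the Dex libraries (exact permutation p = 0.3). Replicate 3 of cKO Dex stood apart from its group. The chi-square per degree of freedom between its counts and those of replicates 1 and 2 was 3.06 and 3.61, against 2.38 between replicates 1 and 2 and between 2.01 and 2.49 among the controls. It also had the lowest weight of the 12 libraries, 0.618, when limma estimated their quality. The number of calls, the counts at an unadjusted p under 0.05 and the signs at WT-selected peaks and target genes are therefore also given without it. Of the markers of the labelled cell type, the strongest Cd4 peak stood between 36.2 and 43.8 CPM (counts scaled to a common library size) in the 6 cKO libraries, and the strongest Cd3e peak between 28.3 and 34.7 CPM. Peaks at markers of other cell types were as open, with cKO means of 41.9 CPM at Ebf1 (B cells), 43.7 CPM at Itgam (myeloid cells) and 49.2 CPM at Pecam1 (endothelium), against 40.4 CPM at Cd4. These levels therefore do not check the cell type label.

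Few peaks passed the test for Dex in cKO cells, and each of them gained accessibility. EdgeR's quasi-likelihood test called 6 of 202587 peaks at an adjusted p under 0.05, a share of 0.00296%, with 6 higher and 0 lower. At an unadjusted p under 0.05, 5297 peaks (2.61%) were higher and 6543 (3.23%) lower, 11840 in all. Without cKO Dex replicate 3 there were 10111 higher (4.99%) and 14448 lower (7.13%), 24559 in all, and without cKO Dex replicate 2 there were 6834 in all. All 3 Dex libraries lay above all 3 controls at 10692 peaks (5.28%) and below them at 11141 (5.5%). In WT cells the same test called 851 peaks higher (0.42%) and 230 lower (0.114%). All 6 peaks called in cKO were among the 851, and at each the gain in mean CPM was between 11.7% and 30.8% of the gain in WT.

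The Cxcr4 peak was the strongest of the 6. Cxcr4 encodes the receptor for the chemokine CXCL12, which guides T cell homing and retention in bone marrow. The peak lies at chr1:128614316-128615908 (mm10), between genes, with its centre 22813 bases upstream of the Cxcr4 start. It stood at 12.8, 13.4 and 15.9 CPM in the control libraries and at 22.7, 27.5 and 22.0 CPM with Dex. Every Dex library was above every control. The log2 fold change was 0.78 ± 0.12 (SE, n = 3 per group; edgeR adjusted p = 0.000695), against 1.95 ± 0.11 in WT, where the mean reached 59.1 ± 1.54 CPM (SD, n = 3). The cKO gain was 22.8% of the WT gain, and the difference between genotypes, tested as an interaction, was -1.17 ± 0.16 (adjusted p = 3.73e-05). The interaction called 56 peaks in all, 0.0276% of those tested.

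Around this peak the Cxcr4 locus did not move as a block. Of 58 other tested peaks within 100 kb, 32 had a positive log2 in cKO and none was called, with a median of 0.03. The 8 with a mean of at least 10 CPM had log2 values between -0.03 and 0.18. The strongest Cxcr4 peak, at chr1:128611749-128612359, stood at 47.3, 53.3 and 45.6 CPM in control and 58.7, 56.0 and 45.7 CPM with Dex. These libraries overlapped, and the log2 was 0.14 ± 0.10 (adjusted p = 0.900).

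The other called peak with a known gene at hand and over 5 CPM was near nonagouti, the gene of a secreted antagonist of melanocortin receptors known for coat colour. It lies at chr2:155051715-155053366, outside the gene, 1528 bases from its end. The control libraries stood at 4.02, 6.52 and 6.07 CPM and the Dex libraries at 8.91, 10.2 and 11.6 CPM. The groups did not overlap. The log2 was 0.88 ± 0.15 (adjusted p = 0.0145) against 3.18 ± 0.15 in WT, and the cKO gain was 11.7% of the WT gain, the smallest share of the 6. Here too the genotypes differed, by -2.31 ± 0.21 (interaction adjusted p = 2.12e-10).

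Another peak lay at chr6:31345099-31346034, over 50 kb from any protein-coding gene. It stood at 4.32, 3.03 and 4.13 CPM in control and at 7.73, 9.13 and 7.45 CPM with Dex, with no overlap. The log2 was 1.09 ± 0.17 (adjusted p = 0.000695) against 2.91 ± 0.16 in WT, and the interaction was -1.81 ± 0.23 (adjusted p = 6.63e-06). The gain was 17.0% of that in WT. Of 43 other peaks within 100 kb, 25 were positive and none was called, although 3 of them were called in WT.

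The remaining 3 called peaks were weak, under 5 CPM in every cKO library. The peak nearest to Khdc1a, at chr1:21333593-21333977 and 15892 bases from the gene, stood at 1.08, 1.57 and 1.03 CPM in control and 3.33, 4.35 and 3.49 CPM with Dex. Its log2 was 1.58 ± 0.24 (adjusted p = 0.000695) against 2.76 ± 0.21 in WT. The groups were well apart in both genotypes, and the difference between genotypes was not called (-1.18 ± 0.33, adjusted p = 0.415).

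A peak within Neb, which encodes the muscle protein nebulin, at chr2:52304449-52305279 stood at 0.84, 1.15 and 0.84 CPM in control and 2.11, 2.97 and 2.96 CPM with Dex. Its log2 was 1.48 ± 0.27 (adjusted p = 0.0319). At chr2:149283289-149283661, far from protein-coding genes, the controls stood at 0.66, 0.84 and 0.90 CPM and the Dex libraries at 1.63, 3.70 and 3.17 CPM. Its log2 of 1.81 ± 0.31 (adjusted p = 0.0100) was the highest of the 6, although its lowest Dex library was less than 2 times the highest control. At these peaks as well the interaction missed the threshold, with adjusted p of 0.108 and 0.413. The intervals of the genotype difference are wide at such counts, and a missed threshold does not show equal responses.

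A second Khdc1a peak, at chr1:21309160-21309646, had the lowest p of any uncalled peak within 100 kb of the 6. It stood at 4.68, 5.85 and 3.23 CPM in control and 7.32, 8.44 and 8.45 CPM with Dex. The groups did not overlap, but the log2 of 0.80 ± 0.17 was not called (adjusted p = 0.267), while WT was called at 1.77. None of the 6 called peaks overlapped a promoter window (250 bases before to 50 after an annotated start), which 12927 tested peaks (6.38%) did.

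**Figure D1:**
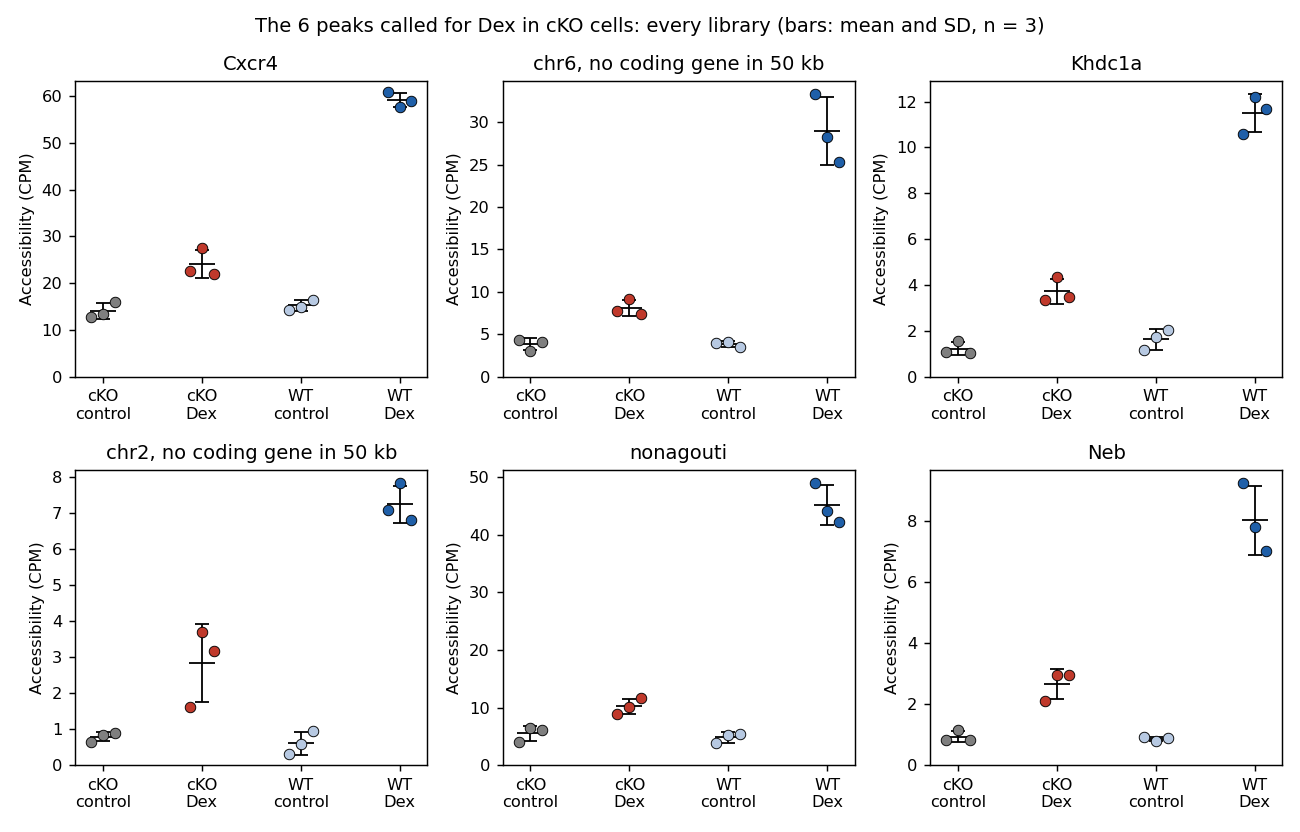
Accessibility in CPM (vertical axes, linear from 0) in each of the 12 libraries at the 6 peaks called for Dex in cKO cells; points are libraries and bars are the mean and SD (n = 3). In each panel the cKO Dex points lie above the cKO control points and below the WT Dex points; at Cxcr4 the cKO mean goes from 14.05 to 24.1 CPM and the WT mean from 15.2 to 59.1 CPM.

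The 6 calls rested on all 3 replicates to different degrees. Without cKO control replicate 1, 2 or 3 edgeR called 1, 3 and 2 peaks, and without cKO Dex replicate 1 or 2 it called 6 and 2, all of them among the 6. Cxcr4 missed the threshold in 2 of the 6 omissions with a largest adjusted p of 0.0831, and Neb in 4 with a largest adjusted p of 0.674. The log2 at Cxcr4 stayed between 0.67 and 0.88. Leaving out cKO Dex replicate 3 had the opposite effect and is described at the end.

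The uncalled peaks with a positive log2 and the smallest p were at Sae1, Ptp4a2, Khdc1a (the second peak) and Zfp521. Sae1 encodes a subunit of the SUMO-activating enzyme. Its peak, at chr7:16364110-16364732 within the gene, stood at 8.64, 7.15 and 7.55 CPM in control and 11.2, 13.2 and 13.3 CPM with Dex. The groups were apart, with a log2 of 0.69 ± 0.14 (adjusted p = 0.148). In WT this peak was called at 1.66, and the genotypes differed (interaction -0.96 ± 0.19, adjusted p = 0.0208).

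Of these, Ptp4a2 had a WT value near 0. It encodes a protein tyrosine phosphatase, and its peak lies 20620 bases from the gene at chr4:129790256-129790835. It stood at 3.36, 2.87 and 3.29 CPM in control and at 5.61, 8.06 and 4.81 CPM with Dex. The log2 was 0.97 ± 0.20 (adjusted p = 0.192) in cKO and 0.06 ± 0.19 in WT. The groups did not overlap in cKO, but neither the change nor the interaction (adjusted p = 0.515) was called. Without cKO Dex replicate 3 the change was called, with a log2 of 1.11 ± 0.20 (adjusted p = 0.00498). In that fit 13 of the 65 named uncalled peaks were called, beside 0.165% of all tested peaks. Some of the 65, Ptp4a2 among them, were listed for a low cKO p in libraries that this fit also used. At Zfp521, a zinc finger gene, the log2 was 0.64 ± 0.14 in cKO (adjusted p = 0.269) and 0.77 in WT.

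The 10 leading lower peaks were all uncalled, with adjusted p between 0.215 and 0.379, and stood at 6.90 CPM or less in every cKO library. The first, within Mlycd, the gene of malonyl-CoA decarboxylase, stood at 2.52, 2.24 and 2.65 CPM in control and 1.02, 0.73 and 0.63 CPM with Dex, a log2 of -1.61 ± 0.33. The next was within Tns1, which encodes the focal adhesion protein tensin, at 5.95 to 6.90 CPM in control and 3.29, 2.84 and 4.01 CPM with Dex (log2 -0.90 ± 0.19). The groups did not overlap at any of the 10. The others were at Rasd2, Epas1 (the hypoxia-inducible factor HIF-2 alpha), Top1mt, Mbtps1, Srxn1, Sec61a1, Dab2ip and Gng4, with log2 values between -1.07 and -2.34. None was called in WT, where the 10 values ran from -0.24 at Dab2ip to 0.91 at Mbtps1. At Mbtps1, the gene of the site-1 protease, the Dex libraries stood at 0.65, 0.26 and 1.21 CPM against 2.34, 1.98 and 2.65 CPM, and the interaction was called (-2.65 ± 0.56, adjusted p = 0.0485). The peak was listed here because of its low cKO p, so this difference was selected in part by the values that enter it.

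The peaks that moved most in WT were followed in cKO cells, as sites chosen without the cKO libraries. In bulk libraries a smaller change in every cell and a larger change in some cells cannot be told apart. The 20 peaks with the smallest p for higher accessibility in WT were chosen on the 6 WT libraries alone. All 20 had a positive log2 in cKO, and at 18 every Dex library was above every control, beside 5.28% of all tested peaks. The median was 0.64 in cKO and 1.91 in WT, and the median gain in CPM was 18.3% of the WT gain. At all 20 the 95% interval of the cKO log2 ended below the WT estimate. Selection on WT makes the WT values larger than they would be otherwise. The 6 calls were within these 20. The WT and cKO contrasts share no library, but peaks, scaling and the estimate of the spread come from all 12.

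Among the 14 of the 20 that were not called, the next by p in cKO were near or within Sae1, Grxcr2 and Ppp1r21. Ppp1r21, at chr17:88581328-88582045, stood at 9.78, 10.3 and 12.1 CPM in control and 16.5, 16.8 and 13.9 CPM with Dex, with a log2 of 0.56 ± 0.12 (adjusted p = 0.285) against 1.84 in WT. The peak nearest to Mchr1, at chr15:81247449-81249038, stood at 11.3, 12.3 and 11.3 CPM against 16.8, 18.1 and 15.6 CPM, a log2 of 0.53 ± 0.12 (adjusted p = 0.361) against 1.70. The groups were apart at both. Near Gimap3, one of a cluster of GTPase genes tied to lymphocyte survival, the controls stood at 8.46, 8.77 and 8.97 CPM and the Dex libraries at 11.1, 13.1 and 13.2 CPM, a log2 of 0.51 ± 0.14 (adjusted p = 0.678) against 1.75.

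The exceptions among the 20 were a peak within Cab39l and a peak at chr16:55582485-55583439. At Cab39l, which encodes a partner of the kinase LKB1, the controls stood at 1.26, 0.84 and 1.55 CPM and the Dex libraries at 1.38, 0.86 and 1.58 CPM. The groups lay on top of each other, with a log2 of 0.08 ± 0.33 and a gain of 0.795% of that in WT, where the log2 was 3.57. The interval of the cKO log2, -0.58 to 0.73, holds 0 and ends well under the WT value. At the chromosome 16 peak the log2 was 0.28 ± 0.14 against 1.77 in WT, and the groups overlapped.

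The 10 leading WT-lower peaks followed less. In cKO 8 of the 10 had a negative log2, beside 50.5% of all tested peaks. Their median was -0.10 against -0.95 in WT, and the groups were apart only at Sorcs2. The Sorcs2 peak stood at 6.36, 5.90 and 5.94 CPM in control and 5.25, 5.08 and 4.12 CPM with Dex, a log2 of -0.33 ± 0.18 (adjusted p = 0.862). At Bhlhe40, a transcription factor gene of effector T cells, the value was -0.10 ± 0.14 against -0.83 in WT. Cd47, whose product signals to phagocytes, had -0.13 ± 0.18 against -1.05.

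Over all 851 WT-higher peaks, 765 (89.9%) were positive in cKO beside 49.5% of all tested peaks. An unadjusted p under 0.05 in that direction was reached by 233, beside 2.61% of all tested peaks. Without cKO Dex replicate 3 it was reached by 296 (34.8%), beside 4.99%. The 3 Dex libraries lay above the 3 controls at 236 of the 851 (27.7%), against 5.28% of all tested peaks. The size went with the size in WT. Among the 536 peaks with a WT log2 under 1 the cKO median was 0.17 and 22.6% had groups apart upwards. Among the 256 between 1 and 2 the values were 0.31 and 35.2%, and among the 59 at 2 or more they were 0.62 and 42.4%. The share with a positive log2 went the other way over these ranges, 91.2%, 89.1% and 81.4%. As a part of the WT gain, the median was 22.4%, 19.0% and 16.4%. Negative cKO values were found at 153 (66.5%) of the 230 WT-lower peaks, beside 50.5% of all tested peaks. Their cKO median was -0.06, and 18 (7.83%) had all Dex libraries below all controls, beside 5.5% of all tested peaks. The WT-lower peaks were not split by their level.

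**Figure D2:**
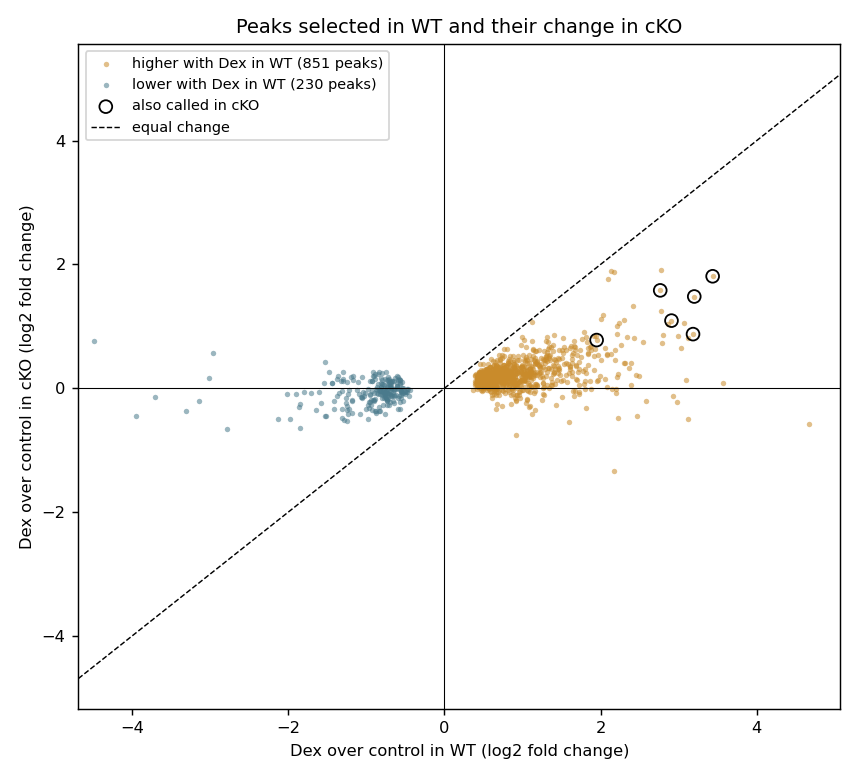
Log2 fold change for Dex over control in cKO cells (vertical axis) against that in WT cells (horizontal axis) at the 851 WT-higher and 230 WT-lower peaks, chosen on the WT libraries; circles mark the 6 peaks called in cKO and the dashed line marks equal change. The higher peaks lie mostly above 0 and below the line, with a median of 0.21 in cKO, and the lower peaks spread around a median of -0.06.

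Over all tested peaks, the sign of the cKO change went with how open the peak was. Over deciles of the tested peaks by mean level, the median cKO log2 was -0.19 in the weakest decile and 0.09 in the strongest, and the share with a positive value went from 37.9% to 84.0%. WT-higher peaks lie mostly in the upper deciles. In the strongest decile 314 of 325 WT-higher peaks (96.6%) were positive beside 84.0% of all peaks there. In the seventh decile, where the background was 50.9%, 70 of 79 (88.6%) were positive, with a median of 0.37 against 0.01. In the sixth decile 26 of 28 were positive against 44.2%. Among WT-higher peaks the median went the other way, from 0.38 in the sixth decile to 0.18 in the strongest, with positive shares between 84.0% and 96.6% over these 5 deciles. The part of level and of library concentration in the WT-higher share was examined by refitting. With the concentration share as a covariate 81.2% of the 851 were positive beside 48.2% of all peaks, and with offsets fitted to level 80.8% beside 49.3%. Under those 2 fits the 20 leading peaks were all positive, with medians of 0.62 and 0.56, and the 10 leading lower peaks were all negative.

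**Figure D3:**
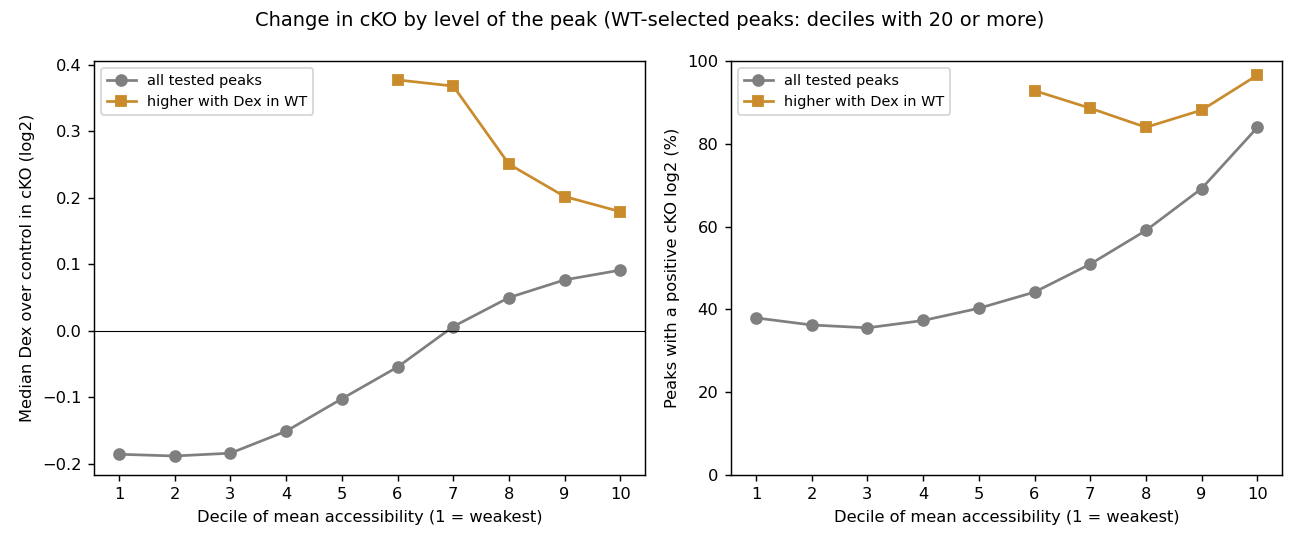
Median cKO log2 fold change (left) and percent of peaks with a positive value (right) by decile of mean accessibility, for all tested peaks (grey circles) and for peaks higher with Dex in WT (squares, deciles with 20 or more). All peaks run from -0.19 to 0.09 and from 37.9% to 84.0%, and the WT-higher peaks lie above them in each decile shown.

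Peaks over promoter windows leaned upwards without a call, where 0.00296% of all tested peaks were called. Of 12927 such peaks, 9563 (74.0%) had a positive cKO log2, with a median of 0.09. The strongest decile of all peaks had a median of 0.09 as well. Of the 851 WT-higher peaks 32 overlapped a promoter window, beside 6.38% of all tested peaks. Of those 32, 29 were positive in cKO with a median of 0.12, and of the 819 others 736 were, with a median of 0.21.

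Known glucocorticoid target genes were followed at the peak with the smallest p in WT, a choice that uses no cKO library. Among the 30 genes of the list, 23 had a positive cKO log2 at that peak, with a median of 0.16, beside 9657 of 17252 genes and a median of 0.04 when every gene is treated so. The 23 are not a count of genes that followed WT. At Nfkbia, Irs2, Gadd45b, Sesn1, Cebpd and Errfi1 the chosen peak had a negative log2 in WT, uncalled there, and a positive value in cKO. Per1, Per2, Mt1, Mt2 and Tgfbr1 were positive in WT and negative in cKO, and Map3k6 and Tat negative in both. An unadjusted p under 0.05 was reached upwards by 6 of the 30 and downwards by 0, beside 735 and 467 of the 17252. Cxcr4 was the only member called, where 0.00296% of all tested peaks were called. Over all 530 peaks of the 30 genes the median was 0.02, and 26 (4.91%) had p under 0.05 upwards beside 2.61% of all peaks, against 14 (2.64%) downwards beside 3.23%. Without cKO Dex replicate 3 these were 36 (6.79%) upwards and 28 (5.28%) downwards, beside 4.99% and 7.13%. At the WT-chosen peaks of the 30 genes that fit had 7 upwards and 0 downwards.

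The other 5 of the 6 genes were Il7r, Txnip, Sgk1, Klf9 and Anxa1. Il7r encodes the receptor chain for IL-7, a survival cytokine of T cells. Its peak upstream of the gene (chr15:9533291-9534549) stood at 5.28, 7.36 and 6.90 CPM in control and 8.70, 9.39 and 8.98 CPM with Dex. The groups did not overlap, with a log2 of 0.47 ± 0.15 (adjusted p = 0.837) against 1.41 in WT. Sgk1 encodes a kinase induced by serum and glucocorticoids. Its peak (chr10:21999957-22001255) lies 703 bases past the gene and stood at 6.30, 4.75 and 5.55 CPM in control and 6.83, 7.97 and 8.87 CPM with Dex. The groups were apart, with a log2 of 0.51 ± 0.17 (adjusted p = 0.837) against 1.31. Other Sgk1 peaks called higher in WT did not all follow. Those with a WT log2 of 1.60 and 2.98 had -0.55 and -0.21 in cKO, and that with 0.47 had 0.20. None of them was called in cKO.

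Klf9 encodes a transcription factor that glucocorticoids induce in many tissues. Its peak, 6008 bases upstream at chr19:23133843-23136594, stood at 31.1, 28.9 and 29.6 CPM in control and 39.3, 36.4 and 31.8 CPM with Dex. The groups were apart by a small margin at replicate 3, with a log2 of 0.27 ± 0.11 (adjusted p = 0.838) against 1.22 in WT, and the genotypes differed by -0.96 ± 0.15 (interaction adjusted p = 0.000444). Txnip, which encodes an inhibitor of thioredoxin and glucose uptake, had 7.38, 11.3 and 8.45 CPM against 12.4, 13.7 and 10.9 CPM, a log2 of 0.44 ± 0.14. There the lowest Dex library was below the highest control. Anxa1, the gene of the anti-inflammatory protein annexin A1, had 0.29 ± 0.13 in cKO and 0.29 in WT.

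Several of the best known targets had small values. The Tsc22d3 peak (chrX:140540552-140541353) stood at 4.92, 3.91 and 4.32 CPM in control and 4.43, 4.09 and 5.86 CPM with Dex, overlapping, with a log2 of 0.12 ± 0.19 against 0.92 in WT. Zbtb16, the gene of the transcription factor PLZF, had 2.34, 2.04 and 1.42 CPM against 2.64, 1.81 and 2.43 CPM, a log2 of 0.24 ± 0.26 against 1.60. Per1, a clock gene, stood between 82.7 and 95.8 CPM in the 6 libraries with a log2 of -0.01 ± 0.09. Fkbp5, which encodes a chaperone partner of the receptor, was followed at a peak under 1 CPM, where the log2 of 0.65 ± 0.63 has an interval from -0.61 to 1.91. At its strongest peak, between 36.6 and 46.3 CPM, Fkbp5 had a log2 of -0.05 ± 0.10. The 7 negative values included Mt1 at -0.60 ± 0.61 and Mt2 at -0.49 ± 0.38, metallothionein genes followed at weak peaks.

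**Figure D4:**
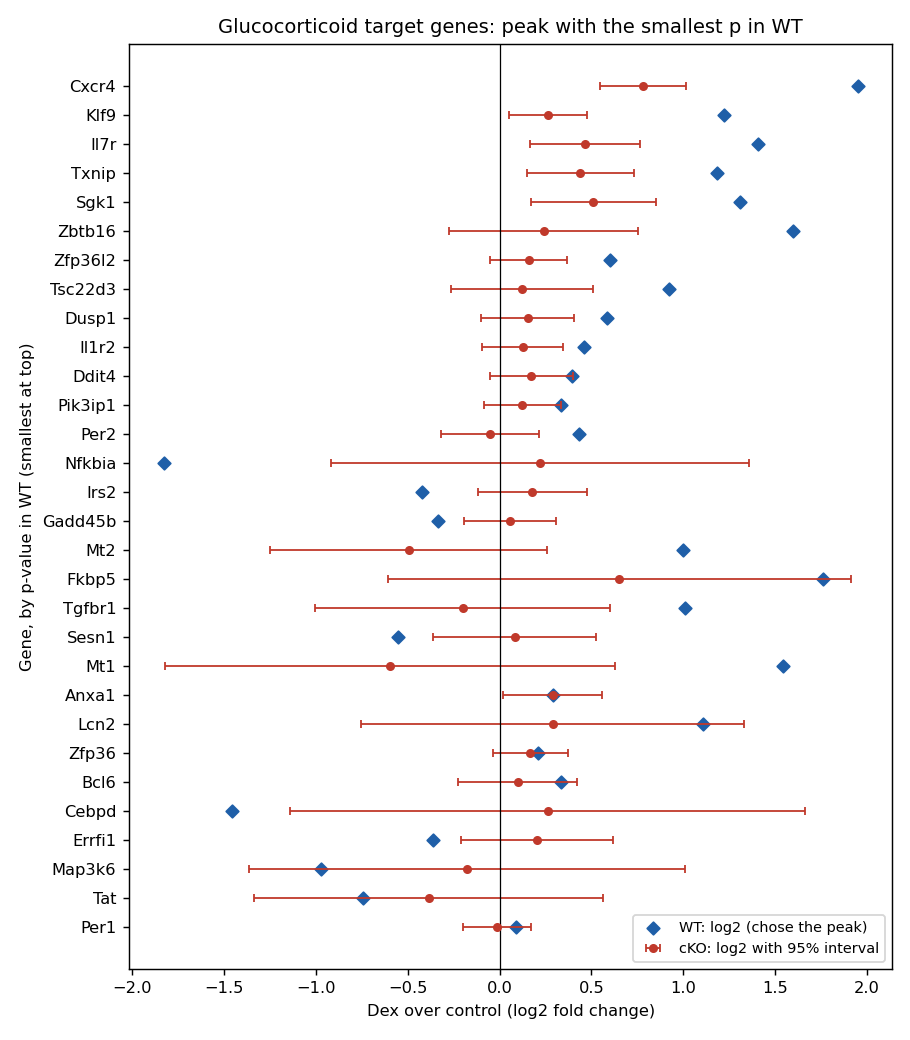
Log2 fold change for Dex over control (horizontal axis) at 1 peak for each of 30 glucocorticoid target genes, ordered from the top by p in WT; circles and bars are the cKO estimate with its 95% interval and diamonds the WT estimate that chose the peak. The intervals of Cxcr4, Klf9, Il7r, Txnip, Sgk1 and Anxa1 lie above 0, and that of Cxcr4 runs from 0.55 to 1.01.

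Promoter sequence and promoter accessibility were set side by side for Sgk1, Cxcr4 and Klf9. These genes were chosen after their values were seen. Sgk1 is a textbook glucocorticoid target, and the distal peaks of the other two were among the 20 leading peaks of WT. The receptor binds as a dimer to a palindrome, searched here as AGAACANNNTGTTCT, and its single arm was searched as AGAACA or TGTTCT on either strand; each full match also holds arm matches. Of 32851 windows of 250 bases upstream of a start in RefSeq (GRCm38.p6), 3 (0.00913%) held the palindrome and 5284 (16.1%) held an arm. Windows were found for 26 of the 30 target genes, 38 windows in all, of which 1 held the palindrome and 6 an arm. Sgk1 has several windows, and that with the palindrome is printed. Capitals mark the palindrome in the Sgk1 window and the arm in the Cxcr4 window, and the Klf9 window has no match. The Sgk1 window also holds an arm outside the palindrome, 242 bases before the start, which is left in lower case. The windows are chr10:21993640-21993889 (+), chr1:128592300-128592549 (-) and chr19:23140976-23141225 (+), each printed 5′ to 3′ in the direction of the gene:
Sgk1: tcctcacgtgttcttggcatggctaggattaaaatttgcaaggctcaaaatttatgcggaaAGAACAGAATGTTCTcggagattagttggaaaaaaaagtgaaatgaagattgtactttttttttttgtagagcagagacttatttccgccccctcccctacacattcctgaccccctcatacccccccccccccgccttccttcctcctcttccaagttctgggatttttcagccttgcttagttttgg
Cxcr4: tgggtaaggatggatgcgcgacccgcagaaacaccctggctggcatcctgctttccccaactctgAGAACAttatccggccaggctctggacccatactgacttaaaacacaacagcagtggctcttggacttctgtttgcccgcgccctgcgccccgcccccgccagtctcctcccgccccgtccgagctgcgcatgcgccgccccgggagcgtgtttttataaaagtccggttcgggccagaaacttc
Klf9: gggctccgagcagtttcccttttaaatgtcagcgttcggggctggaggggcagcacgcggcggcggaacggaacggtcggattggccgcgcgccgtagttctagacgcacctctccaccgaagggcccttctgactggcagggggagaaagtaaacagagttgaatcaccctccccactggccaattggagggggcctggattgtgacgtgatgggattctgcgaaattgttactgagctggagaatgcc
A match describes letters in a window and not a bound site.

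None of the promoter peaks at these genes was called in cKO. The Sgk1 palindrome begins 189 bases before the start, between a tested peak that ends at 21993668 and one that begins at 21993882. The second of these, over the start itself (chr10:21993882-21995155), stood at 23.8, 27.1 and 23.4 CPM in control and 29.2, 29.6 and 26.3 CPM with Dex. The lowest Dex library was below the highest control, and the log2 was 0.20 ± 0.11 (adjusted p = 0.865), against 0.47 ± 0.11 in WT, where it was called (adjusted p = 0.0212). The peak over the Cxcr4 promoter stood at 37.9, 44.7 and 42.3 CPM against 41.2, 45.0 and 41.2 CPM, a log2 of 0.03 ± 0.10, beside 0.78 at the distal peak. That over the Klf9 promoter stood at 51.4, 55.1 and 52.8 CPM against 54.1, 56.2 and 51.0 CPM, a log2 of 0.02 ± 0.10.

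Other gene lists held no further call, beside 6 of 202587 tested peaks (0.00296%). A list or gene without a call is near that share. Cxcr4, which is also on the list of chemokine receptors, was the only member called on any of 23 lists. The receptor and its partners, such as chaperones and co-regulators, had a median of 0.01 over 341 peaks with 10 higher (2.93%) and 13 lower (3.81%) at an unadjusted p under 0.05, beside 2.61% and 3.23% of all peaks. Genes of steroid synthesis and metabolism had a median of 0.03 over 183 peaks, with 4 (2.19%) and 5 (2.73%). Without cKO Dex replicate 3 the receptor list had 18 (5.28%) higher and 33 (9.68%) lower, beside 4.99% and 7.13% of all peaks. The steroid list then had 9 (4.92%) and 15 (8.20%). At Nr3c1 itself 0 of 24 tested peaks were called, with a smallest adjusted p of 0.838. Its strongest peak stood at 52.3, 60.6 and 57.4 CPM in control and 69.9, 61.5 and 57.1 CPM with Dex (log2 0.15 ± 0.10), overlapping. Accessibility at Nr3c1 does not check the knockout label.

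No peak of the Th17 core genes was called, beside 0.00296% of all tested peaks, so the lack of a call says little about these genes. Over 776 peaks of 18 Th17 core genes the median was 0.02, with 27 (3.48%) higher and 16 (2.06%) lower at an unadjusted p under 0.05, beside 2.61% and 3.23% of all peaks. Without cKO Dex replicate 3 they were 42 (5.41%) and 22 (2.84%), beside 4.99% and 7.13%. The strongest Il17a peak, at the gene of the signature cytokine, stood at 60.9, 75.4 and 62.3 CPM in control and 71.0, 73.2 and 59.6 CPM with Dex, overlapping, with a log2 of 0.04 ± 0.10. Among Th17 genes chosen on WT, Tmem176b had 0.39 ± 0.15 in cKO and 1.53 in WT, with its groups apart, and Hif1a 0.05 ± 0.15 against 1.08.

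Lists of immune genes that Dex is known to restrain or raise held no call either, which is near the 0.00296% of all tested peaks. Activation and AP-1 genes had a median of -0.01 over 424 peaks, with 6 (1.42%) higher and 17 (4.01%) lower at an unadjusted p under 0.05, beside 2.61% and 3.23% of all peaks. NF-kB and inflammatory genes had 0.04 over 301 peaks, with 12 (3.99%) and 5 (1.66%). Apoptosis genes had 0.07 over 351 peaks, with 15 (4.27%) and 5 (1.42%). Without cKO Dex replicate 3, 4.99% of all peaks were higher and 7.13% lower, and activation and AP-1 genes had 16 (3.77%) and 25 (5.90%). Their lower share was thus under that of all peaks, in place of over it. In the same fit NF-kB and inflammatory genes had 19 (6.31%) and 10 (3.32%), and apoptosis genes 22 (6.27%) and 11 (3.13%). Within that list Pmaip1, the gene of the death-promoting protein NOXA, had 0.76 ± 0.25 in cKO and 1.12 in WT with its groups apart. Jak1, the gene of a cytokine receptor kinase, had 0.64 ± 0.20 against 0.80. Neither was called in cKO. These lists were written with earlier results known, and no test of a list was made.

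The summed accessibility at markers of other cell types overlapped between the groups. Summed over 140 peaks of B cell genes, the control libraries held between 403 and 442 CPM and the Dex libraries between 398 and 447 CPM. Over 64 peaks of CD8 T and NK genes the ranges were 214 to 227 and 209 to 232, and over 130 peaks of myeloid and dendritic genes 573 to 645 and 566 to 643. Erythroid and stromal genes held 378 to 405 against 384 to 422 CPM. None of these lists was at 0 in any library. In bulk libraries fewer cells of a type and less accessibility per cell cannot be told apart.

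Leaving out cKO Dex replicate 3 turned a near-empty list into one dominated by losses. With 11 libraries edgeR called 335 peaks (0.165%), 34 higher and 301 lower, against 6 and 0. The 34 held all 6 calls and 17 peaks called higher in WT, beside 0.42% of all tested peaks. At 29 of the 34 the omitted library was itself above all 3 controls. The 301 held no peak called in WT in either direction. This is near the share of all tested peaks, of which WT called 0.42% higher and 0.114% lower. The omitted library was below all 3 controls at 95 of the 301 and above them at 39. No share over all tested peaks is given for the counts of the omitted library. The median log2 of the 301 was -2.18 without the library, -1.20 with it and 0.12 in WT.

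The 301 were chosen on cKO Dex replicates 1 and 2 against the cKO controls, so low values in the former and high values in the latter are set by the choice, and the levels are a description. Their median CPM was 2.28, 1.72 and 2.13 in the cKO controls, 0.57, 0.34 and 1.90 in the cKO Dex libraries, and between 0.91 and 1.70 in the 6 WT libraries. The median of the omitted library lay within the range of the cKO controls. The peaks were wider than usual for their level, with a median of 767 bases beside 378 over all tested peaks. Of them 67.1% lay within a gene beside 58.3%, and 3 (0.997%) overlapped a promoter window beside 6.38%.

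Neighbouring peaks recurred among the 301. On chromosome 5, 7 of them lay between 35518895 and 35726112 at Acox3, Cpz and Sh3tc1, with log2 values without replicate 3 between -2.42 and -1.99. Plxna1, which encodes a semaphorin receptor, held 5 on chromosome 6 between -2.53 and -1.45, and Smok2a held 4 on chromosome 17 between -4.24 and -2.52. The leading peak was within Col6a1, the gene of a collagen VI chain (chr10:76716582-76717525). It stood at 3.66, 1.72 and 2.19 CPM in control and at 0.41, 0.30 and 2.01 CPM with Dex, and its log2 was -2.80 ± 0.45 without replicate 3 (adjusted p = 0.000983) and -1.54 ± 0.44 with it (adjusted p = 0.783). The value of replicate 3 lay between those of the controls.

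Members of the gene lists among the 301 were Ahr, Por, Sox5 and Zbtb16, with 1 peak named for each. No share of list members over all tested peaks is set beside them, so their presence is no result about the lists. Ahr encodes the aryl hydrocarbon receptor, a regulator of Th17 cells, and its peak stood at 1.86, 0.99 and 2.13 CPM in control and 0.16, 0.09 and 1.27 CPM with Dex. Its log2 was -3.65 ± 0.64 without replicate 3 and -1.78 ± 0.58 with it. The Zbtb16 peak (chr9:48824550-48825055) was below all controls in every Dex library, at 0.33, 0.26 and 0.69 CPM against 1.92, 1.36 and 1.42 CPM, with -2.39 ± 0.54 and -1.91 ± 0.48. It is not the Zbtb16 peak that rose in WT. What replicate 3 differed in was not tested, and its concentration share of 58.1% was the lowest of the cKO Dex group.

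**Figure D5:**
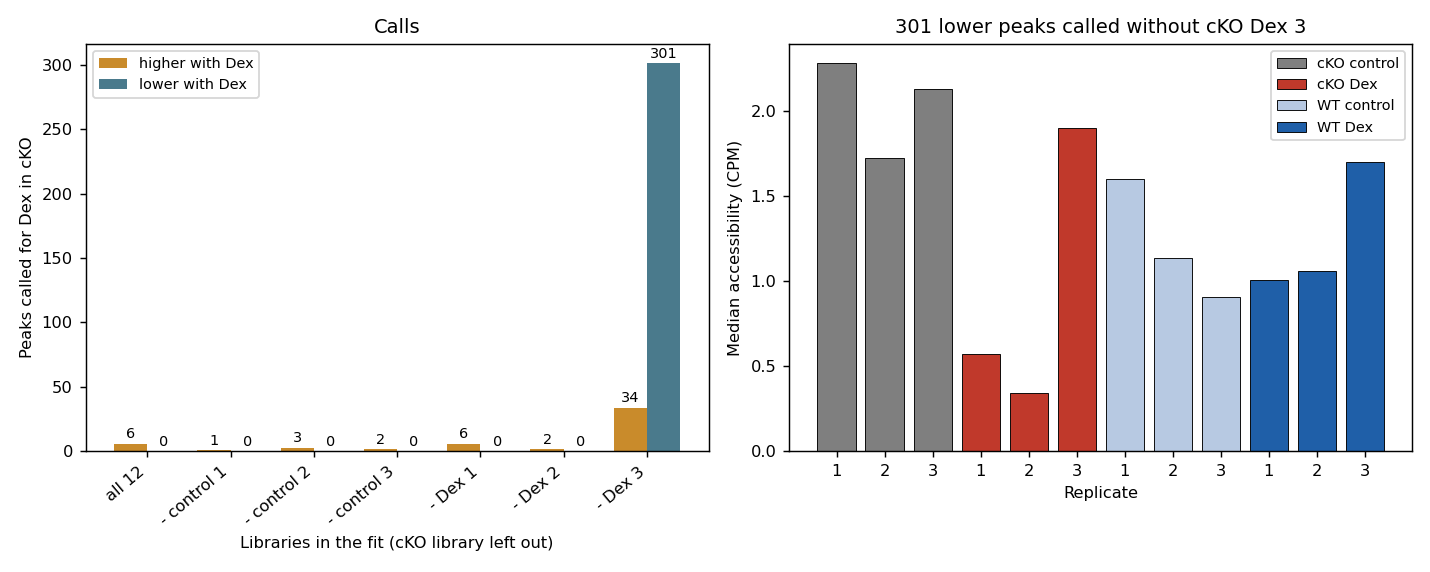
Left, number of peaks called for Dex in cKO with all 12 libraries and with each cKO library left out (bars from 0, higher and lower separately); right, median accessibility in CPM of the 301 lower peaks in each library. The count goes from 6 to 335 without cKO Dex replicate 3, and at those peaks replicates 1 and 2 of cKO Dex stand at 0.57 and 0.34 CPM while replicate 3 stands at 1.90 CPM.

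With and without that library the WT-selected peaks gave the same share: 89.9% of the 851 were positive in cKO in both fits. Of the 20 leading peaks 19 were positive without it, with a median of 0.65, and of the 30 target genes 21 were. The WT-lower share fell from 66.5% to 50.4%, in a fit where 51.5% of all peaks were negative. Of the 10 leading lower peaks 6 were negative in place of 8.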

How the data were processed

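ATAC-seq was measured in 12 libraries, 6 of them cKO. The authors deposited raw whole-number counts per joint peak (mm10, per the submitters' processing notes), which also list Trimmomatic 0.39, Bowtie2 2.3.5, Picard 2.18.27, SAMtools 1.3, Genrich 0.6.1 and featureCounts 2.1.1. The sources used here do not give the treatment of duplicates or of the transposase offset, and without molecular identifiers fragments are not independent molecules. Columns were matched to samples by library name.

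Peaks were filtered with filterByExpr (minimum count 10, total 15), which left out 19518, scaled by TMM and fitted with edgeR 4.0.16 (R 4.3.3) by robust quasi-likelihood over all 12 libraries with 1 coefficient per group and 8 residual degrees of freedom. The median biological coefficient of variation was 25.0%. P-values are two-sided and adjusted by Benjamini-Hochberg over all tested peaks. The SE was taken as the log2 over the root of the F statistic, without sign. CPM uses TMM-scaled library sizes. A peak was assigned to the protein-coding gene (RefSeq, GRCm38.p6) whose span holds its centre, or the nearest within 50 kb, which gave 181723 peaks a gene. A gene named by position need not be the gene a peak regulates. Steps were tested on simulated data.

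Named peaks were those called, the 10 leading in each direction in cKO, the 20 higher and 10 lower leading in WT, the WT-chosen or strongest peak of list genes, up to 5 in each direction without an influential library, and the strongest Nr3c1 peak. Alternatives were other scalings, filters and tools (DESeq2 1.42.0, limma 3.58.1), cKO libraries alone, a replicate block, a covariate and leaving out each library. Members and lists were chosen with earlier results of these data known. Signal tracks and peaks of single libraries were not used.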

Additional observations from a re-analysis of the deposited data

Results flagged for a closer look

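The Dex effect differed between cKO and WT by the interaction test of edgeR (adjusted p under 0.05) at 18 of the 71 named peaks. Given as cKO minus WT on the log2 scale with SE, it was -2.31 ± 0.21 at nonagouti, -1.81 ± 0.23 at chr6:31345099-31346034, -1.50 ± 0.20 at chr16:55582485-55583439 and -3.49 ± 0.46 at Cab39l. It was -1.27 ± 0.17 at Ppp1r21, -1.17 ± 0.16 at Cxcr4, -1.95 ± 0.28 at Cradd and -1.17 ± 0.17 at Mchr1. At Ift80 it was -1.13 ± 0.17, at Klf9 -0.96 ± 0.15, at Gimap3 -1.24 ± 0.19 and at Ube2s -1.56 ± 0.24. At peaks far from genes it was -2.31 ± 0.36 at chr19:23056894-23057202, -0.92 ± 0.15 at chr17:84115758-84117588 and -1.27 ± 0.21 at chr10:21676448-21677419. The last were -1.20 ± 0.20 at Grxcr2, -0.96 ± 0.19 at Sae1 and -2.65 ± 0.56 at Mbtps1. All but Mbtps1 were among the 20 leading peaks of WT, so the choice of peaks used the WT libraries that also enter the difference; Mbtps1 was chosen on the cKO libraries.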

How the results depend on the processing

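The 6 calls came out as 10 with DESeq2, 3 with the cKO libraries alone and 2 with limma-voom, and the cause was not tested. Sample quality weights gave 3 higher and 2 lower, total counts 5 higher, and the other scalings, filters and the covariate 6. All 6 calls were among the 10 of DESeq2. With each cKO library left out the count ranged from 1 to 335, and only without cKO Dex replicate 3 did it exceed 6. Over the 11 other settings the log2 at Cxcr4 stayed between 0.69 and 0.79 and was called in each, while Neb was not called in 5, the chromosome 2 peak and nonagouti in 3 and Khdc1a in 1.

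Of WT-higher peaks, 81.2% were positive in cKO with the concentration share as a covariate, 80.8% with loess offsets, 84.3% with a stricter filter and 83.3% with total counts, beside 89.9%. Leaving out each library, WT libraries included (added after seeing the data), gave 83.5% to 93.0%. Of WT-lower peaks, 75.7% were negative with the covariate and 59.6% with quality weights, beside 66.5%, and 50.4% to 73.6% with a library left out. The interaction count at named peaks ranged from 16 to 23.

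With the replicate number as a block the calls were 6, the WT-higher share 90.5%, the WT-lower share 66.5% and the interaction count 18, and no call at the 6 peaks changed. Same-numbered cKO control and Dex libraries deviated together with r between -0.01 and 0.15, so the numbers were not taken to pair them. At peaks under 1 CPM depth limits what can be seen. The 95% interval at Fkbp5, from -0.61 to 1.91, holds 0 and a wide range of changes.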
